A study of Mus musculus with 8 samples.

Results

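The collagen genes encode the α chains of the collagens, and were taken as every measured gene whose symbol consists of Col, the number of the collagen type, the letter a and the number of the chain. There were 44 such genes among the 22180 genes on the array, 11 of the fibrillar class, 6 of the basement membrane class, 9 of the FACIT class and 18 others. Whole colon was compared between mice in which Hh signalling was activated in the stroma (Ptch1ΔCol1 mice) and controls, with 4 mice in each group. All mice received tamoxifen, and a piece of colon 1 cm long, beginning 1.5 cm above the anus, was taken 7 days later. Ptch1ΔCol1 replicates 1 and 2 were Col1a2CreER; Ptch1fl/fl; R26-LSL-tdTomato, and replicates 3 and 4 were Col1a2CreER; Ptch1fl/fl. Control replicates 1 and 2 were Ptch1fl/+ and control replicates 3 and 4 were R26-tdTomato, so that no control carried Cre. The mice were on a C57BL/6 background, the labels give no age, and each group had 3 females and 1 male (Ptch1ΔCol1 replicate 3 and control replicate 2). Cre was driven by a transgenic promoter of Col1a2, which is itself one of the 44 genes, and Cre and the loss of Ptch1 cannot be told apart in this design.

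Collagens are triple helices of 3 α chains, secreted into the extracellular matrix mainly by fibroblasts and other mesenchymal cells. Fibrillar collagens bear tension, type IV collagen forms the network of basement membranes, FACIT collagens sit on the surface of fibrils, and type VI collagen builds beaded microfilaments around cells. In the gut the stroma below the epithelium is both the main source of collagen and the compartment that responds to Hh ligands. In whole colon, fewer cells of a type and less RNA per cell cannot be told apart.

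Expression is given as log2 values, normalized by robust multi-array average, so that a difference of 1 is a doubling of the measured signal. Array medians over these genes were 5.54 to 5.71. Each array had a mean correlation of 0.992 to 0.993 with the other 7, except that of Ptch1ΔCol1 replicate 3, which had 0.988. Gli1, the transcription factor whose transcript reports Hh signalling, had a log2 fold change of 1.36 (adjusted p = 0.00203 from limma). The labelled tissue was checked by its markers, and the 8 markers of colon epithelium had mean log2 levels of 8.09 to 12.87 and the 10 fibroblast markers of 6.05 to 11.93.

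No collagen gene passed limma with Benjamini-Hochberg adjustment over all genes at an adjusted p under 0.05 (0 of 44, against 0.0271% of all genes). At an unadjusted p under 0.05, limma placed 3 of 44 (6.82%) higher in Ptch1ΔCol1 mice, against 4.31% of all genes, and 0 of 44 lower, against 4.91% of all genes. These shares were near those of all genes. The 3 genes were Col6a4, Col6a5 and Col6a6, all chains of type VI collagen. Every Ptch1ΔCol1 mouse lay above every control for Col6a4 and Col6a5, which is 4.55% of the 44 genes, against 2.47% of all genes, and no collagen gene had every Ptch1ΔCol1 mouse below every control, as 2.9% of all genes had. The estimate was above 0 for 27 collagen genes and below 0 for 17, with a median log2 fold change of 0.09, against -0.01 over all genes. By class the median was 0.07 for fibrillar, 0.13 for basement membrane, 0.06 for FACIT and 0.05 for the other collagens. Leaving out single mice moved these medians. In the same order of classes they were -0.02, 0.05, -0.04 and 0.01 without Ptch1ΔCol1 replicate 4, and 0.09, 0.20, 0.11 and 0.16 without Ptch1ΔCol1 replicate 3. Of the 44 genes, 26 had a mean level above percentile 40 of all genes (a log2 level of 4.67), including 6 fibrillar, 4 basement membrane, 5 FACIT and 11 other genes.

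**Figure D1:**
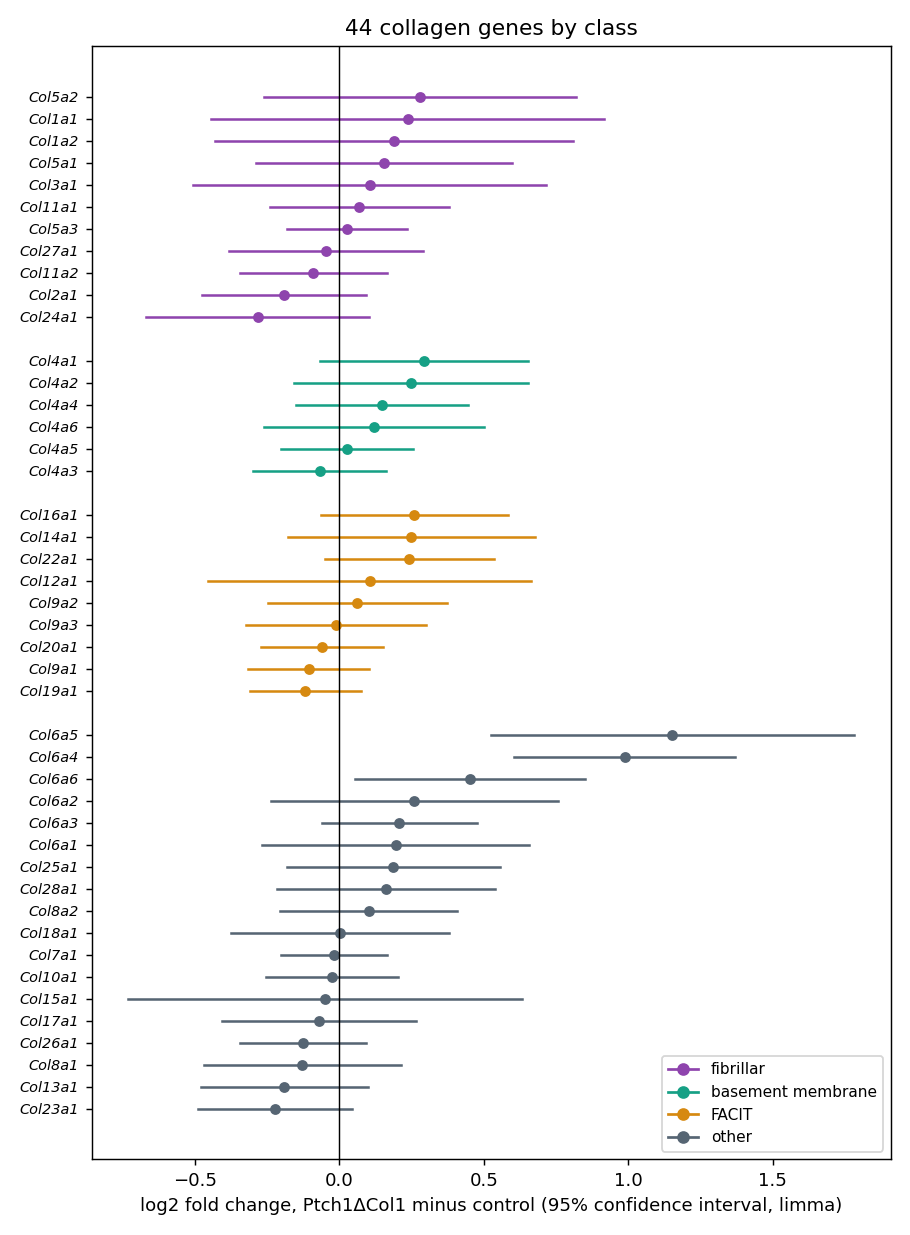
Log2 fold change (x axis, Ptch1ΔCol1 minus control) of each of the 44 collagen genes (y axis), as a point with its 95% confidence interval from limma, n = 4 mice per group, coloured by class. The unadjusted intervals of Col6a5, Col6a4 and Col6a6 lie to the right of 0 and those of the other 41 genes cross it.

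Type VI collagen is assembled from the chains of Col6a1 and Col6a2 together with that of Col6a3, and the chains of Col6a4, Col6a5 and Col6a6 are related in sequence to that of Col6a3 and can take its place. In the mouse the genes of these 3 alternative chains follow each other on chromosome 9. Their promoters are shown because these genes had the smallest p among the collagens, beside that of Col6a1, whose chain is their partner in the helix. Each runs from 250 bases before to 50 bases after the start of the RefSeq gene on the minus strand of GRCm38.p6, at chr9:106096642-106096941 for Col6a4, chr9:105960594-105960893 for Col6a5, chr9:105828036-105828335 for Col6a6 and chr10:76725995-76726294 for Col6a1. Capitals mark a GC box, GGGCGG or its reverse complement CCGCCC.
Col6a4: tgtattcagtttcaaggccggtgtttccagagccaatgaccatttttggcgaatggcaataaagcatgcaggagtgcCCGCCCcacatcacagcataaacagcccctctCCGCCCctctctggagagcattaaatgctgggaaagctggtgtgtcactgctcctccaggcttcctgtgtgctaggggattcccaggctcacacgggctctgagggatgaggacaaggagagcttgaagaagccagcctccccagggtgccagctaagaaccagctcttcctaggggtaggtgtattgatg
Col6a5: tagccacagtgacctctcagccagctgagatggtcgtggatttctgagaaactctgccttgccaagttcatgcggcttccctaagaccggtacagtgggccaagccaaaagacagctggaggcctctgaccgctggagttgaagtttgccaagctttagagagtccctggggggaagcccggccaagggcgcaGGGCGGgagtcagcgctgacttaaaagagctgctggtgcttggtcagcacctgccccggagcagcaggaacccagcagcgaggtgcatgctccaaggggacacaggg
Col6a6: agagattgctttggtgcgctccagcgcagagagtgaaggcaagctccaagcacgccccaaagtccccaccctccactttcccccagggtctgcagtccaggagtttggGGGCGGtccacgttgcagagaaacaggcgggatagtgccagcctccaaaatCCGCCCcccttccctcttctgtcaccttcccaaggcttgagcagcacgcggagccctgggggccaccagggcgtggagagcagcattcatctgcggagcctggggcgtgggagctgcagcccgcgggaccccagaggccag
Col6a1: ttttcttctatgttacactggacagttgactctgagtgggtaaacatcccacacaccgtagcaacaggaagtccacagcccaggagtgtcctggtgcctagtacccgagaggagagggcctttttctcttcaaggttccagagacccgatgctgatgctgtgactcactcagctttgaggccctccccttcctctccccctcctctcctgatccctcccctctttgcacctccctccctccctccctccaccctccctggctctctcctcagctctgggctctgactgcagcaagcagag

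A GC box began at -173 and -141 in the Col6a4 promoter, at -57 in that of Col6a5 and at -142 and -91 in that of Col6a6, counted in bases from the start site, and the Col6a1 window held none. Of the 44 genes 35 had a promoter in the table used, and 22 of these 35 held a GC box, against 35.7% of all 32851 promoters. The GC content of the windows was 55.0% for Col6a4, 60.0% for Col6a5, 65.0% for Col6a6 and 57.3% for Col6a1. The GLI motif GACCACCCA, searched on both strands, was in 0 of the 35 windows and in 0.253% of all promoters. TATAAA, the TATA box, was in 5 of the 35 windows, against 13.6% of all promoters, and CCAAT in 13, against 37.4%, both searched on both strands.

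Col6a4 was at 5.95, 5.68, 5.75 and 6.46 in Ptch1ΔCol1 replicates 1 to 4 and at 4.79, 5.03, 5.21 and 4.86 in control replicates 1 to 4. The groups did not overlap, and the lowest Ptch1ΔCol1 mouse lay 0.47 above the highest control. The log2 fold change was 0.99 (standard error, SE, 0.17), or 1.98-fold, with an adjusted p of 0.206 from limma and an exact permutation p of 0.0286 (two-sided), the smallest that 4 mice against 4 allow. Every gene whose groups do not overlap has this permutation p, which is not adjusted for the 44 genes tested. Over all genes 2.47% were higher and 2.9% lower without overlap.

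Col6a5 was at 7.32, 7.54, 7.46 and 7.41 in Ptch1ΔCol1 mice and at 6.28, 7.17, 6.18 and 5.49 in controls. The Ptch1ΔCol1 mice lay close together (SD 0.09, n = 4) and the controls were spread out (SD 0.69, n = 4), the male Ptch1fl/+ mouse being highest and an R26-tdTomato female lowest. Its log2 fold change was 1.15 (SE 0.28), or 2.22-fold, with an adjusted p of 0.339 from limma and an exact permutation p of 0.0286. In females alone, 3 against 3, the log2 fold change was 1.44 (adjusted p = 0.0981 from limma).

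Col6a6 was at 4.87, 4.83, 4.15 and 4.89 in Ptch1ΔCol1 mice and at 4.38, 4.43, 4.16 and 3.96 in controls. Ptch1ΔCol1 replicate 3 lay within the controls and the other 3 Ptch1ΔCol1 mice above them all. The log2 fold change was 0.45 (SE 0.18, adjusted p = 0.510 from limma), and 0.63 without Ptch1ΔCol1 replicate 3 (adjusted p = 0.200). With all mice the exact permutation p was 0.114. With a mean of 4.69 ± 0.36 in Ptch1ΔCol1 mice and 4.23 ± 0.22 in controls (SD, n = 4), Col6a6 was the only type VI gene whose mean over all mice was below percentile 40.

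**Figure D2:**
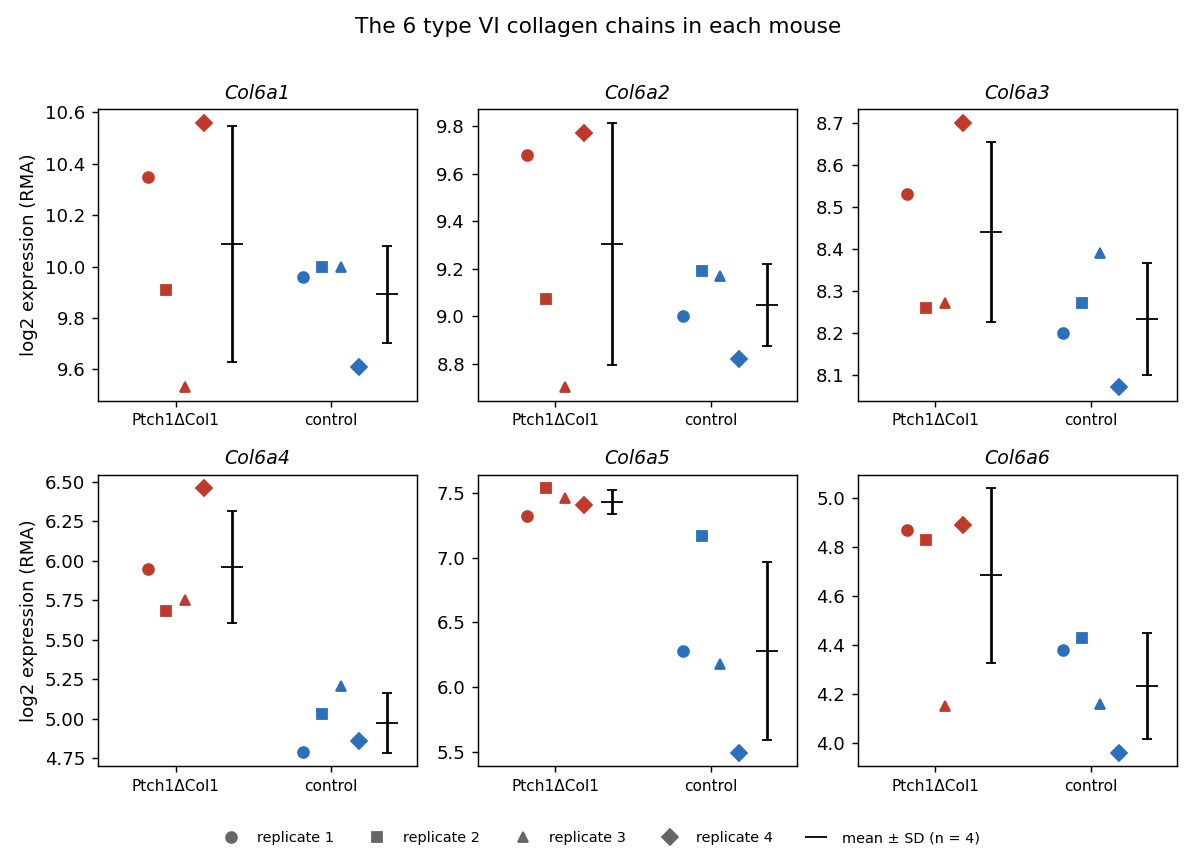
Log2 expression (y axis, own range for each gene) of the 6 type VI collagen genes in each Ptch1ΔCol1 mouse (red, left) and control (blue, right), with the marker giving the replicate number and black bars the mean ± SD of 4 mice. Col6a4 and Col6a5 do not overlap between groups, while Col6a1, Col6a2 and Col6a3 do.

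The main chains of type VI collagen overlapped between groups. Col6a1 was at 10.35, 9.91, 9.53 and 10.56 in Ptch1ΔCol1 mice and at 9.96, 10.00, 10.00 and 9.61 in controls, a log2 fold change of 0.20 (SE 0.21, adjusted p = 0.797 from limma). Col6a2 was at 9.68, 9.07, 8.70 and 9.77 in Ptch1ΔCol1 mice and at 9.00, 9.19, 9.17 and 8.82 in controls, a log2 fold change of 0.26 (SE 0.22, adjusted p = 0.745). Both were highest in Ptch1ΔCol1 replicates 1 and 4 and lowest in Ptch1ΔCol1 replicate 3. Col6a3 had a log2 fold change of 0.21 (SE 0.12, adjusted p = 0.623). Within each mouse, the log2 value of Col6a4 minus that of Col6a1 was -4.40, -4.23, -3.78 and -4.10 in Ptch1ΔCol1 mice and -5.17, -4.97, -4.79 and -4.75 in controls, without overlap. This ratio of probe signals is given as a description, for a gene picked for its small p. It rests on the brighter transcript cluster of Col6a1. Against the dimmer cluster that the array also holds for Col6a1, the groups overlapped. In that case Ptch1ΔCol1 replicate 1 (5.95 for Col6a4 and 8.51 for Col6a1) lay below control replicate 3 (5.21 and 7.73). Taken against the brighter cluster, the difference for Col6a5 and for Col6a6 overlapped between groups. Over all 6 type VI genes the median log2 fold change was 0.36, against -0.04 over the 12 other genes of that class. The first median includes the 3 collagen genes of smallest p, while Col6a1, Col6a2 and Col6a3 had estimates of 0.20 to 0.26. Of the 6 type VI genes 5 were above percentile 40, and of the 12 others 6, so the 2 medians are descriptions only.

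In the order of RefSeq genes, the measured genes on the Col6a6 side of the locus were Pik3r4, Atp2c1 and Aste1, and those on the Col6a4 side were Glyctk, Wdr82 and Mirlet7g. These neighbours were chosen after the values of the collagen genes were seen. Their log2 fold changes were -0.04 for Pik3r4, -0.08 for Atp2c1, 0.03 for Aste1, 0.08 for Glyctk, 0.01 for Wdr82 and 0.18 for Mirlet7g, with adjusted p from 0.786 to 0.985 in limma. Each interval included 0, and the highest upper bound was 0.60, for Mirlet7g. This gene alone of the neighbours lay below percentile 40, with log2 levels of 2.97 to 3.83.

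**Figure D3:**
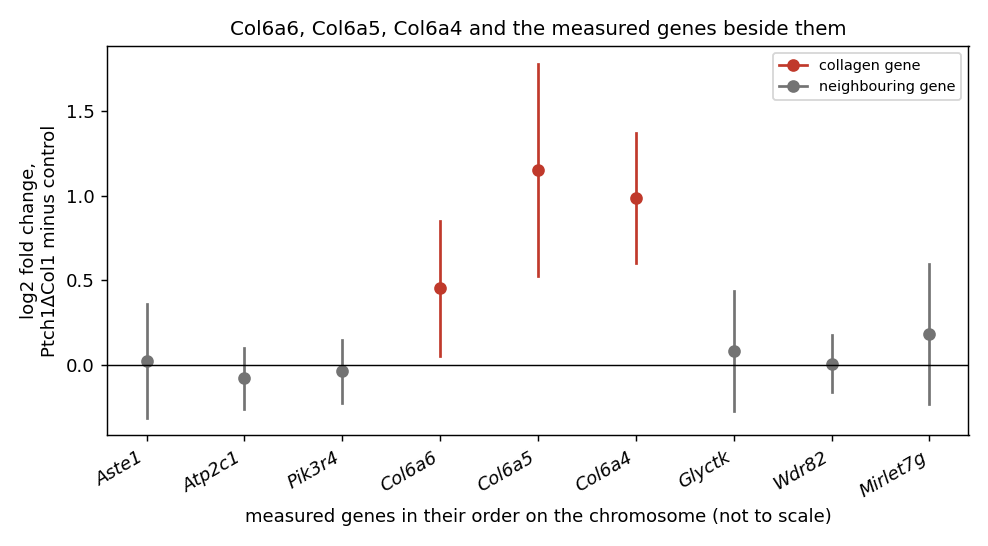
Log2 fold change (y axis, Ptch1ΔCol1 minus control) with its 95% confidence interval from limma for Col6a6, Col6a5 and Col6a4 (red) and the 3 nearest measured genes on each side (grey), in chromosomal order on the x axis, which is not to scale. The unadjusted intervals of the 6 neighbours include 0. The 3 collagen genes were singled out for their small unadjusted p, so that their intervals lie above 0 follows from that choice.

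Among the fibrillar collagens, Col1a1 and Col1a2 encode the chains of type I collagen, the main collagen of connective tissue, and Col3a1 encodes type III collagen, abundant in distensible organs. Col1a1 was at 10.59, 9.65, 9.38 and 10.86 in Ptch1ΔCol1 mice and at 9.65, 9.92, 10.20 and 9.76 in controls. Col1a2 was at 10.03, 9.12, 8.78 and 10.04 in Ptch1ΔCol1 mice and at 9.13, 9.46, 9.55 and 9.07 in controls. Col3a1 was at 9.84, 9.15, 8.76 and 10.18 in Ptch1ΔCol1 mice and at 9.26, 9.47, 9.61 and 9.17 in controls. In all 3 genes Ptch1ΔCol1 replicates 1 and 4 were the highest of the 8 mice, Ptch1ΔCol1 replicate 3 was the lowest, and the controls lay between. The log2 fold change was 0.24 for Col1a1 (SE 0.30), 0.19 for Col1a2 (0.28) and 0.11 for Col3a1 (0.27), with adjusted p of 0.841, 0.862 and 0.929 in limma. Their 95% intervals reached from -0.44 to 0.92, from -0.43 to 0.81 and from -0.51 to 0.72. The estimate became -0.01 for Col1a1 and -0.13 for Col3a1 without Ptch1ΔCol1 replicate 4, and -0.01 for Col3a1 without Ptch1ΔCol1 replicate 1. Without Ptch1ΔCol1 replicate 3 it was 0.48 for Col1a1, 0.43 for Col1a2 and 0.35 for Col3a1. Col5a1 and Col5a2, chains of type V collagen, which is built into type I fibrils, had log2 fold changes of 0.16 and 0.28. The lowest fibrillar estimates were those of Col24a1, at -0.28 (SE 0.17, adjusted p = 0.639), and Col2a1, the cartilage collagen, at -0.19 (SE 0.13, adjusted p = 0.664), both below percentile 40.

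Of the basement membrane genes, Col4a1 and Col4a2 encode the chains found in nearly all basement membranes, including those of vessels. Col4a1 was at 7.95, 7.37, 7.26 and 7.92 in Ptch1ΔCol1 mice and at 7.35, 7.35, 7.42 and 7.21 in controls. Col4a2 was at 7.90, 7.37, 7.21 and 8.06 in Ptch1ΔCol1 mice and at 7.35, 7.52, 7.45 and 7.23 in controls. Again Ptch1ΔCol1 replicates 1 and 4 were highest and the other Ptch1ΔCol1 mice lay within or near the range of the controls. The log2 fold change was 0.29 for Col4a1 (SE 0.16, adjusted p = 0.605 from limma) and 0.25 for Col4a2 (SE 0.18, adjusted p = 0.698). Col4a5, which forms a separate network with Col4a6 in smooth muscle, had a log2 fold change of 0.03 (SE 0.10), and the class ranged from -0.07 to 0.29.

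The FACIT genes ranged from -0.12, for Col19a1, to 0.26, for Col16a1. Col14a1, a fibril-associated collagen of soft connective tissue, was at 8.26, 7.48, 7.62 and 8.10 in Ptch1ΔCol1 mice and at 7.88, 7.42, 7.79 and 7.37 in controls (log2 fold change 0.25, SE 0.19, adjusted p = 0.711 from limma). Col12a1, its relative on tension-bearing fibrils, was at 8.63, 8.14, 7.52 and 8.91 in Ptch1ΔCol1 mice and at 8.19, 8.26, 8.16 and 8.17 in controls. The controls of Col12a1 lay within 0.10 of each other (SD 0.05, n = 4) and the Ptch1ΔCol1 mice spread to both sides of them (SD 0.61, n = 4), so that its log2 fold change was 0.11 (SE 0.25, adjusted p = 0.924). Its estimate was 0.37 without Ptch1ΔCol1 replicate 3 and -0.10 without replicate 4. Col16a1 had an SE of 0.14 and an adjusted p of 0.607. Col22a1, known from tissue junctions such as that of muscle and tendon, had a log2 fold change of 0.24 (SE 0.13, adjusted p = 0.597) and was below percentile 40. Ptch1ΔCol1 replicate 3 was its highest mouse, at 4.46.

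Outside type VI, the transmembrane collagen genes Col23a1 and Col13a1 had log2 fold changes of -0.22 (SE 0.12, adjusted p = 0.598 from limma) and -0.19 (SE 0.13, adjusted p = 0.673). Col23a1 was at 5.37, 5.79, 5.53 and 5.36 in Ptch1ΔCol1 mice and at 5.82, 5.74, 5.86 and 5.52 in controls, with overlap. Col15a1 and Col18a1, collagens of the basement membrane zone that carry an endostatin domain, had log2 fold changes of -0.05 and 0.00. Col15a1, singled out after its values were seen, was at 6.83, 6.52, 5.37 and 6.99 in Ptch1ΔCol1 mice and at 6.62, 6.42, 6.64 and 6.23 in controls, and Ptch1ΔCol1 replicate 3 lay 0.86 below every other mouse. Col7a1, the collagen of anchoring fibrils, was at -0.02, and the remaining genes of the class lay between -0.13 and 0.19.

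The spread within groups was wider in Ptch1ΔCol1 mice for most collagen genes. The SD was larger in Ptch1ΔCol1 mice for 33 of 44 genes (75.0%), against 68.2% of all genes, and for 23 of the 26 above percentile 40 (88.5%), against 72.2% of all genes above it. The median SD of the 26 genes was 0.36 in Ptch1ΔCol1 mice and 0.16 in controls. Ptch1ΔCol1 replicates 1 and 4 were the 2 highest of the 8 mice for 21 of 44 genes (47.7%), against 4.55% of all genes, and for 18 of the 26 (69.2%), against 5.84% of all genes above percentile 40. Ptch1ΔCol1 replicate 3 was the lowest mouse, or tied for lowest, for 20 of 44 genes (45.5%), against 17.7% of all genes. All 6 fibrillar genes above percentile 40 had both features, in Col5a1 with a tie of Ptch1ΔCol1 replicate 3 and control replicate 4 at 6.27. These shares are descriptions, since the genes of one mouse share an array and a piece of tissue. The mice were singled out on the values of these same genes, so the contrast with all genes is no separate evidence.

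Relative to the mean of the controls, the mean over the fibrillar genes was 0.29, -0.10, -0.37 and 0.34 in Ptch1ΔCol1 replicates 1 to 4 and -0.04, 0.04, 0.10 and -0.11 in control replicates 1 to 4. The mean over Col6a1, Col6a2 and Col6a3 followed the same order in Ptch1ΔCol1 mice, at 0.46, 0.02, -0.22 and 0.62, against 0.00, 0.10, 0.13 and -0.22 in controls. For Col6a4, Col6a5 and Col6a6 it was 0.89, 0.86, 0.63 and 1.09 in Ptch1ΔCol1 mice and -0.01, 0.38, 0.02 and -0.39 in controls. These 3 genes were grouped because of their small p, so this last mean is no separate evidence, and in Col6a6 itself Ptch1ΔCol1 replicate 3 lay within the controls.

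**Figure D4:**
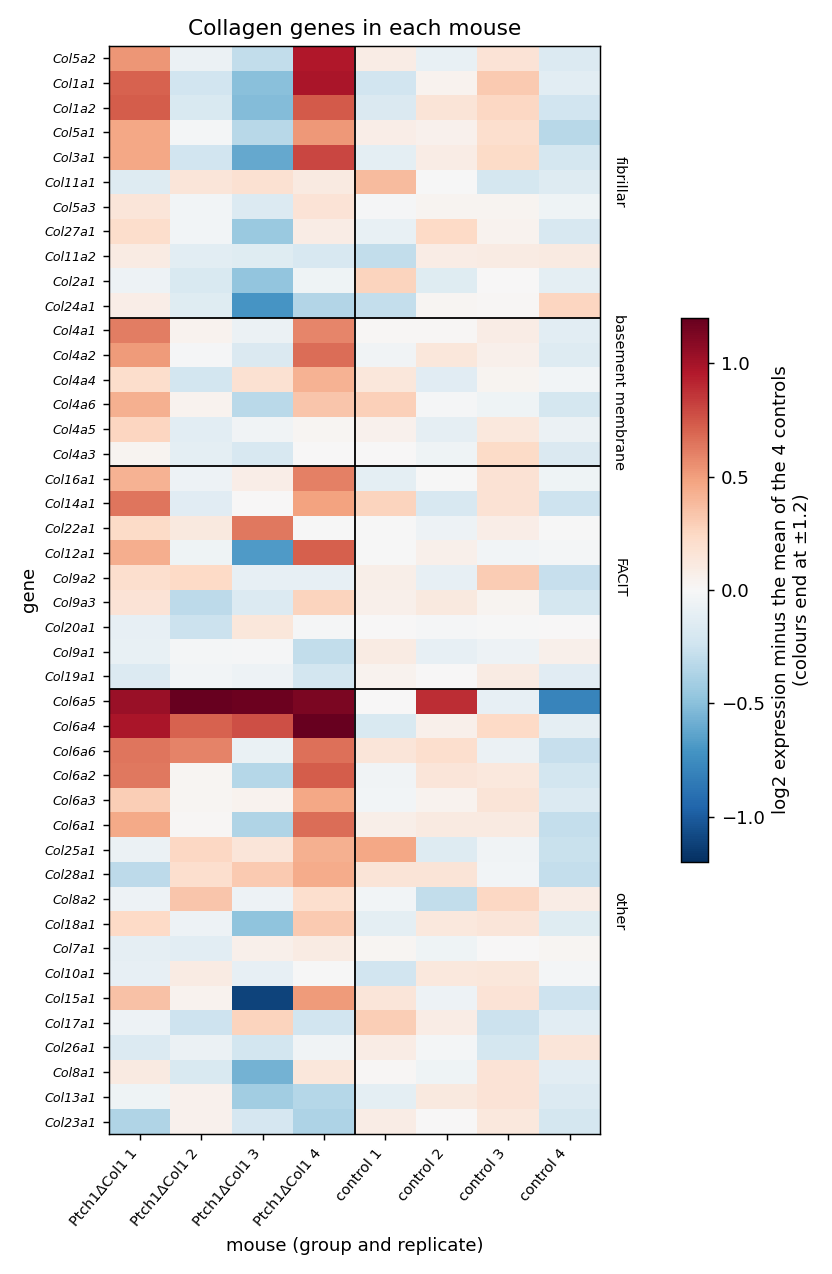
Log2 expression of each collagen gene (rows, grouped by class and ordered by log2 fold change) in each mouse (columns, Ptch1ΔCol1 mice left, controls right), as the difference from the mean of the 4 controls, with red higher and blue lower. Ptch1ΔCol1 replicates 1 and 4 are the 2 highest mice in 21 of 44 rows, and Col6a5 and Col6a4 stand above the controls in all 4 Ptch1ΔCol1 mice.

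Without Ptch1ΔCol1 replicate 3, limma placed 8 collagen genes (18.2%) higher at an unadjusted p under 0.05, against 5.24% of all genes, namely Col12a1, Col4a1, Col4a2, Col6a1, Col6a2, Col6a4, Col6a5 and Col6a6. In females alone there were 6 (13.6%), against 4.92% of all genes, namely Col4a1, Col4a2, Col6a2, Col6a4, Col6a5 and Col6a6. None passed after adjustment in either case. Replicate 3 was the lowest mouse, or tied for lowest, for 20 of 44 genes, so leaving it out raises their estimates. The comparison of females alone leaves it out too. Without Ptch1ΔCol1 replicate 1 the genes higher at that threshold were Col28a1, Col6a4 and Col6a5, against 1111 of all 22180 genes. Without Ptch1ΔCol1 replicate 4 they were Col22a1, Col6a4 and Col6a5, against 1028. Leaving out replicate 3 also leaves out the only male of its group, so that the mouse and its sex cannot be told apart. Marker lists of other cell types moved both ways in this mouse. Relative to the control mean, the mean over 7 endothelium markers was -0.69 in Ptch1ΔCol1 replicate 3, 0.02 to 0.38 in the other Ptch1ΔCol1 mice and -0.20 to 0.14 in controls, with 4 of the 7 estimates above 0. For 6 leukocyte markers it was -1.34 in replicate 3, -0.32 to 0.055 in the other Ptch1ΔCol1 mice and -0.19 to 0.15 in controls, with 0 of 6 above 0. For 5 mesothelium markers it was -2.57 in replicate 3, 0.18 to 1.06 in the other Ptch1ΔCol1 mice and -1.21 to 0.72 in controls, with 1 of 5 above 0. The mean over the 10 fibroblast markers was -0.15 to 0.31 in Ptch1ΔCol1 mice and -0.19 to 0.13 in controls, with 4 of 10 above 0. Over all genes 10438 of 22180 estimates were above 0. Smooth muscle markers were above 0 in 9 of 9, at 0.07 to 0.24 in Ptch1ΔCol1 mice, highest in replicate 3, and -0.13 to 0.06 in controls. Adipocyte markers were above 0 in 6 of 6, at -0.35 to 0.96 in Ptch1ΔCol1 mice, lowest in replicate 3, and -0.37 to 0.41 in controls. Pericyte markers were at -0.23 in replicate 3 and enteric glia markers at 0.24, with 2 of 5 and 3 of 5 above 0. Skeletal muscle markers were above 0 in 6 of 7, at 0.04 to 0.50 in Ptch1ΔCol1 mice, highest in replicate 3, and -0.01 to 0.01 in controls. The 4 measured markers of the squamous epithelium of the anus were also highest in replicate 3, at 0.32. They were at 0.10 to 0.27 in the other Ptch1ΔCol1 mice and -0.13 to 0.11 in controls, with 3 of 4 above 0. Only 3 of the 7 skeletal muscle markers and 1 of the 4 squamous markers were above percentile 40, so most of these signals were dim. The part of these cell types in the collagen values was not tested.

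For 3 collagen genes the array holds a second transcript cluster. The dimmer cluster of Col6a1 was at 8.51, 8.05, 7.69 and 8.26 in Ptch1ΔCol1 mice and at 7.59, 7.67, 7.73 and 7.54 in controls, so that replicate 3 alone lay within the controls. Its log2 fold change was 0.50 (SE 0.16, adjusted p = 0.451 from limma over all clusters). The dimmer cluster of Col1a2 was at 8.07, 7.15, 7.05 and 7.85 in Ptch1ΔCol1 mice and at 6.81, 7.07, 7.29 and 6.89 in controls. Here the log2 fold change was 0.52 (SE 0.23, adjusted p = 0.546), against 0.19 for the brighter cluster. Both estimates are over 1.5 times those of the brighter clusters of the same genes. With every cluster tested on its own, limma placed 5 of 47 collagen clusters (10.6%) higher at an unadjusted p under 0.05, against 4.37% of all clusters, the added clusters being these of Col6a1 and Col1a2. The dimmer cluster of Col5a1 had a log2 fold change of 0.02 (SE 0.08).

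**Figure D5:**
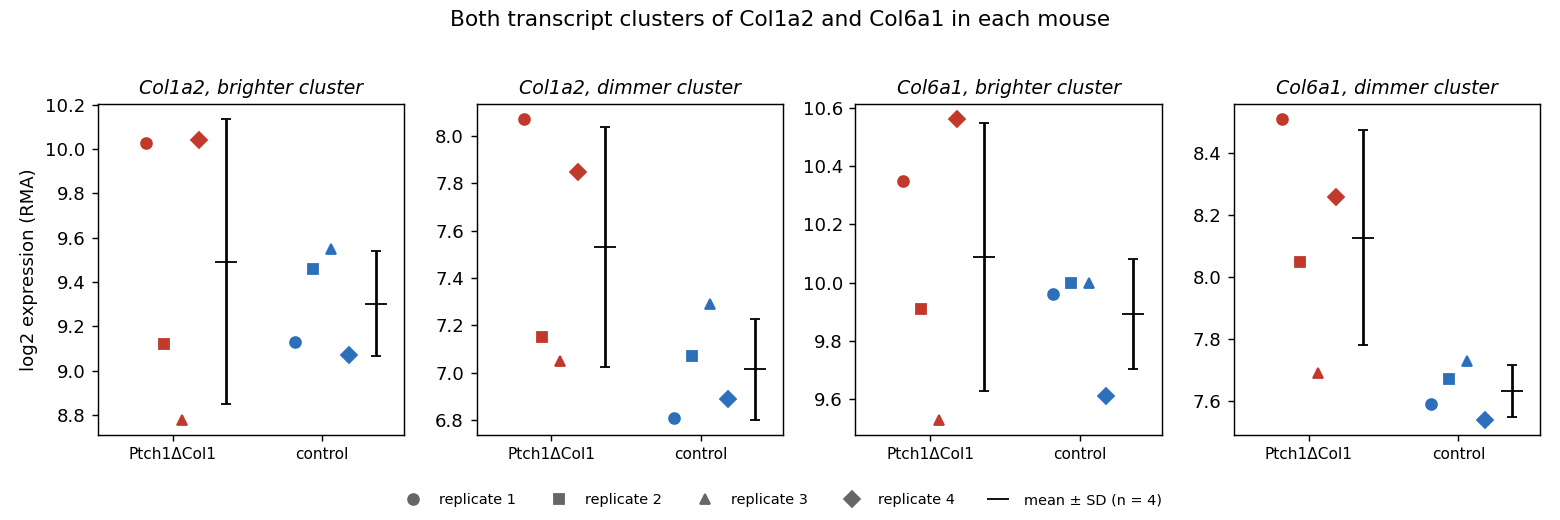
Log2 expression (y axis, own range for each panel) of the brighter and the dimmer transcript cluster of Col1a2 and Col6a1 in each Ptch1ΔCol1 mouse (red, left) and control (blue, right), with the marker giving the replicate number and black bars the mean ± SD of 4 mice. The log2 fold change is 0.19 and 0.52 for the clusters of Col1a2 and 0.20 and 0.50 for those of Col6a1.

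Enzymes that modify, fold, trim and crosslink collagen were followed as a list of 30 genes, of which 27 were measured. None passed limma after adjustment, 21 had estimates above 0 and 6 below, and the median log2 fold change was 0.08, against -0.01 over all genes. Bmp1, the proteinase that removes the C-terminal propeptide, was at 8.63, 8.08, 7.55 and 8.28 in Ptch1ΔCol1 mice and at 7.83, 7.80, 8.00 and 7.51 in controls (log2 fold change 0.35, SE 0.21, adjusted p = 0.629). Loxl1, a lysyl oxidase that crosslinks matrix, was at 9.17, 8.44, 7.73 and 8.66 in Ptch1ΔCol1 mice and at 8.35, 8.25, 8.14 and 8.03 in controls (log2 fold change 0.31, SE 0.25, adjusted p = 0.733). Serpinh1, the collagen chaperone of the endoplasmic reticulum, had a log2 fold change of 0.09 (SE 0.21). In each of these 3 genes Ptch1ΔCol1 replicate 1 was highest, and in Loxl1 and Serpinh1 replicate 3 was lowest. Bmp1 and Loxl1 had the highest estimates of the list, and the lowest was that of P4ha3, at -0.26. The order of mice differed between enzymes, and replicate 3 was highest for Pcolce2, Mia2, Loxl4 and Colgalt2 (7.13, 8.84, 5.80 and 5.12). Relative to the control mean, the mean over the 27 was 0.29, 0.02, -0.13 and 0.15 in Ptch1ΔCol1 replicates 1 to 4. Tll2, a relative of Bmp1, had a log2 fold change of -0.23 (SE 0.10, adjusted p = 0.530) and lay below percentile 40. At an unadjusted p under 0.05 it was the only one of the 27, with 1 lower and 0 higher. Over all genes 4.91% were lower and 4.31% higher at that threshold. Of 10 collagen receptor genes 9 were measured, with 0 called (0 also at an unadjusted p under 0.05), 3 above 0, 6 below 0 and a median of -0.06. The discoidin domain receptors Ddr1 and Ddr2 were at 0.07 and 0.00, and Itga1, a chain of a collagen-binding integrin, at -0.13 (SE 0.10, adjusted p = 0.725).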

How the data were processed

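RNA of whole colon was hybridised to 1-colour Affymetrix Mouse Gene ST 2.0 arrays. Robust multi-array average, run by the authors, gave the deposited log2 values, which carry 2 decimals and were used unchanged. Neither its software nor its annotation is given in the sources used here. Per the labels the tamoxifen dose was 5 mg for 25 g of body weight.

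Of 41345 transcript clusters, the probe table gave 1 gene symbol to 23521, and 23328 of these were linked by gene ID to RefSeq genes of assembly GRCm38.p6. Clusters with several symbols (1820, among them 1 with Col6a1) or none (16004) were left out. The cluster with the highest mean stood for a gene. Groups were compared over all 22180 genes with limma 3.58.1 in R 4.3.3 (lmFit, eBayes, Benjamini-Hochberg adjustment, threshold 0.05), a step that was tested on simulated data. A two-sided exact permutation test over the 70 relabellings of 8 mice was added for single genes. Each array is of another animal, and 4 a group limit the precision.

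Genes named were Col1a1, Col1a2, Col3a1, the 3 brightest of each class, the 12 of smallest p, those without overlap and those whose clusters differ in sign, 21 in all. Others are named where a class, a list or a range is described. Members, classes and lists were chosen with earlier results of these data known. Promoter sequences are from RefSeq. As alternatives, clusters of a gene were averaged or each cluster was tested, dim genes were dropped, arrays were quantile normalized or centred, the variance model or array weights were changed, sex, reporter allele or replicate number entered the model, and the comparison was made with each control genotype, with females only or without each mouse.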

Additional observations from a re-analysis of the deposited data

Results flagged for a closer look

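In 50 groups of 4 mice, made of the named genes and the class means, the gap of the highest or lowest mouse to its neighbour was set against the range of the group at the 95% critical value of Dixon, which chance passes in about 1 in 20 groups. A single mouse stood apart in 3 groups. Col6a6 was at 4.15 in Ptch1ΔCol1 replicate 3 and at 4.83 to 4.89 in the other Ptch1ΔCol1 mice. Col6a1 was at 9.61 in control replicate 4 and at 9.96 to 10.00 in the other controls. The mean of the other collagens, relative to the control mean, was -0.18 in control replicate 4 and 0.04 to 0.08 in the other controls.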

How the results depend on the processing

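No collagen gene, processing enzyme or receptor passed after adjustment in any of the 21 alternatives. The count of collagen genes higher at an unadjusted p under 0.05, 3 in the comparison as reported, was 6 in females alone and 5 with every cluster tested on its own, where Col1a2 and Col6a1 were added, and lay between 2 and 8 with a mouse left out, where 3.34% to 5.24% of all genes were higher. The count of genes lower, 0 as reported, lay between 0 and 1 with a mouse left out. Col24a1 was lower without Ptch1ΔCol1 replicate 1, where 1229 of all 22180 genes were. Col23a1 was lower without Ptch1ΔCol1 replicate 2 and without control replicate 4, where 887 and 757 of all genes were. With a mouse left out the FACIT median lay between -0.04 and 0.11, and was -0.04 without Ptch1ΔCol1 replicate 4 and -0.03 without control replicate 4. The fibrillar median then lay between -0.02 (below 0 without Ptch1ΔCol1 replicate 1 or 4) and 0.09, that of basement membrane genes between 0.05 and 0.21 and that of the other collagens between 0.01 and 0.16. Over the remaining alternatives the fibrillar median lay between 0.02 and 0.17, with 0.17 when dim genes were dropped. With Col15a1, Col18a1 and Col7a1 counted with type IV, the basement membrane median was 0.03 and that of the other collagens 0.16. With a mouse left out the log2 fold change lay between -0.10 and 0.37 for Col12a1 (-0.01 without Ptch1ΔCol1 replicate 1 and -0.10 without replicate 4), between -0.0092 and 0.48 for Col1a1 and between -0.13 and 0.35 for Col3a1 (-0.01 without Ptch1ΔCol1 replicate 1). The Col4a5 log2 fold change lay between -0.048 (without Ptch1ΔCol1 replicate 1) and 0.078 (without replicate 2), and was -0.01 without control replicate 2. The sign changed in each of these 4 genes, and the cause was not tested. Col6a4 (0.82 to 1.08), Col6a5 (0.71 to 1.60) and Col6a6 (0.28 to 0.70) kept their sign in every alternative that tested them, with the lowest adjusted p at 0.0955, 0.0949 and 0.200 and the highest at 0.862, 0.974 and 0.974. The groups of Col6a4 and Col6a5 do not overlap, so leaving out mice cannot change their sign. All 3 genes were singled out for their small p, so the kept sign is no separate evidence.

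Median centring moved the split of all genes at an unadjusted p under 0.05 to 1084 higher and 659 lower (62.2% higher), against 956 and 1088 (46.8% higher) as reported. Genes called over all genes numbered 12 with median centring or without Ptch1ΔCol1 replicate 3, 11 with a trended and robust variance, 0 against the R26-tdTomato controls alone (at an unadjusted p under 0.05, 606 higher and 703 lower) and 6 as reported. Same-numbered mice did not deviate together (correlations of 0.03, -0.01, -0.05 and -0.02), and 0 of 8 mice correlated best with their own number. With the replicate number as a block, 3 genes were called over all genes and 0 of the collagens. Col6a4, Col6a5 and Col6a6 were again higher at an unadjusted p under 0.05, as 925 of all 22180 genes were. Col6a6 was not higher at that threshold without Ptch1ΔCol1 replicate 1, 2 or 4 or without control replicate 3 or 4. Against the Ptch1fl/+ controls alone, Col6a6 was not higher at that threshold either. Col6a6 and 17 other collagen genes lay below percentile 40 of signal, and 4 mice a group leave wide intervals for type I and III collagen.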
